A study of Mus musculus with 59 samples.

Results

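The genes described here encode the subunits of heterotrimeric G proteins and the regulators of G protein signalling (RGS proteins), measured by RNA sequencing in the ventral tegmental area of the midbrain, in male mice given cocaine or saline. They were taken by name, as the symbols that begin with Gna, Gnb, Gng or Rgs and go on with a subunit or family number or letter, and were kept where the mean level over all libraries was at least 0.5 FPKM (fragments counted per gene, divided by its transcript length and by the size of the library). Of 24346 symbols listed, 54 carried such a name, and 43 of these passed the limit, as did 14263 symbols in all. The 43 were 12 alpha, 4 beta and 11 gamma subunits and 16 RGS genes. Of the 11 left out, Gnat3 and Rgs21 were listed at 0 in all 59 libraries, and the highest was Gna14 at 0.298 FPKM. The lowest genes kept were Rgs14 at 0.609 FPKM and Gna15 at 0.731 FPKM.

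A G protein is a switch below cell surface receptors: an activated receptor loads the alpha subunit with GTP, alpha parts from the paired beta and gamma subunits, and both parts act on effectors until alpha hydrolyses its GTP. Gs and Golf raise cyclic AMP, Gi, Go and Gz lower it and free the beta-gamma pairs that open potassium channels, and Gq and its relatives drive phospholipase C. RGS proteins speed the hydrolysis of GTP and so shorten the signal. In the ventral tegmental area the D2 autoreceptor, the opioid receptors and the GABA-B receptor all signal through the Gi and Go class.

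Each of the 59 libraries is labelled as the ventral tegmental area of a mouse in one of 4 procedures: acute injection in the home cage, chronic injection in the home cage, conditioning, or intravenous self-administration. Acute cocaine had 5 libraries and acute saline 6, chronic cocaine 6 and chronic saline 6, conditioning cocaine 6 and conditioning saline 6, and self-administration cocaine 15 and self-administration saline 9. The acute, chronic and conditioning libraries are called injected here for short, although the labels name injection for the home-cage groups only. The labels give no strain, age, dose, time of death, transgene or batch, and nothing says that libraries of a group came from separate animals, so p-values measure the spread between libraries, which may in part be technical. Libraries are named by their group and by the number of their column in the table, counted from 0.

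The dissection label was met by the dopamine neuron markers, none of which was at 0 in any library: Th, the rate-limiting enzyme of dopamine synthesis, ranged from 124 to 691 FPKM, and Slc6a3, the dopamine transporter, from 107 to 608 FPKM. The forebrain marker Tbr1 averaged 0.105 FPKM. The FPKM of a library added up to between 398577 and 457508, and the read depth behind a value is unknown. The self-administration libraries stood apart from the injected ones when saline and cocaine groups were compared separately. Of all 14263 genes, 57.8% passed the threshold between self-administration saline and the other saline groups, and 57.2% between the cocaine groups. Over all 24 self-administration and 35 injected libraries, the ranges did not overlap for 2.14% of all genes. The labels tie no batch to a procedure, so procedure and batch cannot be told apart, and each cocaine comparison was made within its own procedure.

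Gnas, which encodes the alpha subunit of Gs, was by far the most abundant member, with a lowest, median and highest value of 1150, 1374 and 1613 FPKM over all 59 libraries. It made up 70.2% of the summed FPKM of the 12 alpha genes, and its relative Gnal, which encodes the Golf alpha subunit of striatal and olfactory neurons, had a median of 48.3 FPKM. Reads of Gnas cannot be separated here from those of its alternative promoters or of the opposite-strand Nespas. Within the Gi and Go class Gnao1 led with a median of 153 FPKM (131 to 174 FPKM), followed by Gnai2 with 112 FPKM (86.9 to 131 FPKM) and Gnai1 with 73.1 FPKM (57.8 to 88.0 FPKM). The ranges of Gnao1 and Gnai2 did not meet, and those of Gnai2 and Gnai1 met only at their ends. Gnaz, the Gz subunit, and Gnai3 lay lower, at medians of 23.3 and 14.0 FPKM. Gnaq and Gna11, which couple receptors to phospholipase C, had medians of 47.6 and 33.9 FPKM, and their blood-cell relative Gna15 had a median of 0.752 FPKM.

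Among beta subunits Gnb1 was highest, with a median of 212 FPKM (190 to 260 FPKM), then Gnb2 with 129 FPKM (77.1 to 151 FPKM). Gnb5, which pairs with RGS proteins of the R7 class in place of a gamma subunit, had a median of 53.8 FPKM, and Gnb4 one of 8.44 FPKM. Among gamma subunits Gng3, a neuronal form, led with a median of 141 FPKM (121 to 172 FPKM), ahead of Gng2 with 68.2 FPKM and Gng5 with 66.0 FPKM, whose ranges overlapped almost wholly (48.9 to 110 FPKM for Gng2, 34.6 to 96.6 FPKM for Gng5). Gng7, the gamma partner of Golf in the striatum, had a median of 12.8 FPKM. Gngt2, the cone photoreceptor form, and Gng8, known from olfactory neurons, were the lowest, at 2.90 and 2.36 FPKM.

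The 16 RGS genes together had 304 ± 22.8 FPKM (SD, n = 59), against 1951 ± 86.0 FPKM for the alpha genes. Rgs10, of the R12 class, and Rgs4, of the R4 class, were the highest, with medians of 48.9 FPKM (34.999 to 80.2 FPKM) and 46.2 FPKM (30.1 to 90.2 FPKM), which do not differ beyond their spread. Rgs8 and Rgs17 followed at 32.7 and 26.5 FPKM, then Rgs5, a marker of pericytes, Rgs7 and Rgs2, which acts on Gq, at 25.5, 25.5 and 21.3 FPKM. Rgs9, the R7 member best known from striatal dopamine signalling and from photoreceptors, had a median of 6.89 FPKM, and Rgs16 one of 3.88 FPKM. Rgs14, in mice best known from hippocampal area CA2, was the lowest member, with a lowest, median and highest value of 0.134, 0.552 and 2.79 FPKM.

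**Figure D1:**
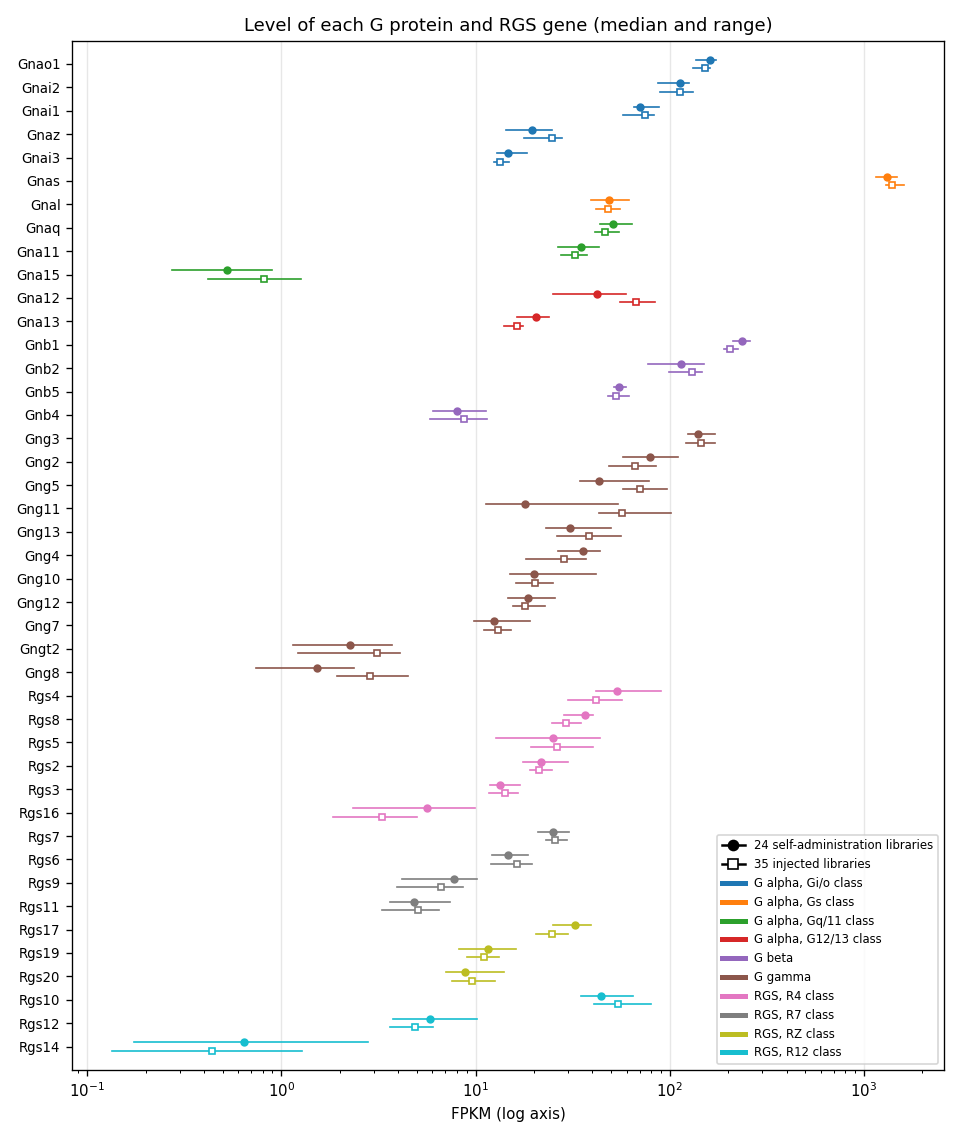
Levels of the 43 genes, ordered by class, as FPKM on a log axis; each symbol is the median and each bar the range over the 24 self-administration libraries (filled circles) or the 35 injected libraries (open squares). Gnas is the highest throughout, and Gng11 shows a wide distance between both sets, with medians of 17.9 FPKM in self-administration and 56.6 FPKM in injected libraries.

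The members differed in how steady they were among libraries of one group. The SD within groups on the log2(FPKM + 1) scale was smallest for Gnb1 (0.06), Gnb5 (0.07), Gnao1 (0.07) and Gnas (0.07), while 500 genes of like level had median SDs between 0.13 and 0.14. It was widest for Gng11 (0.38), Rgs16 (0.32), Rgs14 (0.28), Gng13 (0.27) and Rgs5 (0.27), beside medians of 0.12 to 0.16 for genes of like level.

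Sequence was printed for Rgs4, Rgs5 and Rgs16, RGS genes of chromosome 1 that were picked by name. Rgs4 and Rgs5 lie 45663 bases apart there, and Rgs8 and Rgs16 lie 40025 bases apart. The 250 bases before the transcription start are given from RefSeq on GRCm38.p6, in the direction of transcription: Rgs4 at chr1:169747643-169747892 (minus strand), Rgs16 at chr1:153740103-153740352 (plus strand) and Rgs5 at chr1:169655251-169655500 (plus strand). Capitals mark the letters TGACG or CGTCA (a cyclic AMP response element half-site), TATAAA, and CCAAT or its reverse complement ATTGG.
Rgs4: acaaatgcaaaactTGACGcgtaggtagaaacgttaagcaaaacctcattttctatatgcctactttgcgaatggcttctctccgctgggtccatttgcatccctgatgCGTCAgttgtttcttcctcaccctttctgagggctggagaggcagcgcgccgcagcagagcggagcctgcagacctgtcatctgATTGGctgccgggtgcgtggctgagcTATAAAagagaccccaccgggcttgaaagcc
Rgs16: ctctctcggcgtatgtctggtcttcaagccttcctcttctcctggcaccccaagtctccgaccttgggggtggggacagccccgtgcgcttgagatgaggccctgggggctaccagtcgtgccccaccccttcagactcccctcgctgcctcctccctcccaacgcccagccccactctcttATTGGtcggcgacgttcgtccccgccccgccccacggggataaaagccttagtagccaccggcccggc
Rgs5: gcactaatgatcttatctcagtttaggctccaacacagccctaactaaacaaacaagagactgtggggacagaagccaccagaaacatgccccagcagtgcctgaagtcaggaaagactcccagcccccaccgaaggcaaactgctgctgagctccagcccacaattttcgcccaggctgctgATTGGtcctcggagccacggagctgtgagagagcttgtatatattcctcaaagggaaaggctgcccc
The Rgs4 window held TGACG beginning 236 bases and CGTCA beginning 141 bases before the start, ATTGG at 57 bases and TATAAA at 31 bases. The windows of Rgs16 and Rgs5 each held a single match, ATTGG at 68 bases and 67 bases before the start. Windows were found for 34 of the 43 members, 47 in all, and 21.3% of them held the half-site on either strand, against 17.8% of 32851 windows of all genes. The full element TGACGTCA was in 0 of the 47 and in 1.5% of all windows, TATAAA or TTTATA in 17.0% and 12.4%, and CCAAT or ATTGG in 25.5% and 33.8%. These are matches of letters, not sites of binding.

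The first question was whether cocaine moved these genes within each procedure. By limma on log2(FPKM + 1) with Benjamini-Hochberg adjustment over all genes, 0 of the 43 passed an adjusted p of 0.05 in any of the 4 procedures, where percent called over all genes was 0 in each. Before adjustment, p was under 0.05 for 2 of 43 after acute cocaine (3.91% of all genes), 1 after chronic cocaine (7.21%), 7 after conditioning with cocaine (8.15%) and 0 after self-administration (3.53%). All 10 of these differences were lower in cocaine libraries. Over all genes, 247 of 558 such differences were lower after acute cocaine and 626 of 1162 after conditioning. After chronic cocaine fewer of them were lower than higher. The 10 were unadjusted and came from separate fits, 7 of them from conditioning. Because members co-varied among libraries, the 10 signs are not independent and show no common fall under cocaine. The median difference of the 43 genes was -0.01 after acute, -0.01 after chronic, -0.07 after conditioning and -0.03 after self-administered cocaine, and that of all genes was -0.00057, 0.00061, -0.0022 and -0.0011 in the same order.

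Conditioning held the member with the smallest p. Rgs9 (chromosome 11, 109225355 to 109298129, minus strand, GRCm38) had 5.43, 4.38, 4.45, 3.96, 5.58 and 5.88 FPKM in conditioning cocaine libraries, against 6.68, 6.80, 7.74, 6.02, 6.64 and 5.93 FPKM in conditioning saline libraries. All 6 cocaine libraries lay below all 6 saline libraries, and Rgs9 was the only member of 43 whose groups did not overlap in any cocaine comparison. Such a gap was found for 0.407% of all genes in conditioning, 0.316% in acute, 0.498% in chronic and 0% in self-administration. The difference was -0.37 ± 0.09 (SE) on the log2 scale, 0.776-fold, with p = 0.00076 and an adjusted p of 0.594 by limma. In the other procedures Rgs9 had a median of 7.03 FPKM in acute cocaine and 7.24 FPKM in acute saline libraries, of 6.04 FPKM in chronic cocaine and 6.31 FPKM in chronic saline libraries, and of 8.13 FPKM in self-administration cocaine and 7.75 FPKM in self-administration saline libraries, with overlapping ranges each time.

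Rgs16, an R4 gene whose protein acts on Gi and Gq, had 1.92, 2.40, 2.04, 2.40, 2.66 and 3.96 FPKM in conditioning cocaine libraries, against 4.88, 3.44, 4.83, 2.78, 3.39 and 3.57 FPKM in conditioning saline libraries. All but 1 of the cocaine libraries lay under every saline library, and the exception, conditioning cocaine 5, was exceeded by only 2 of the 6 saline libraries. The difference was -0.44 ± 0.13, 0.738-fold (limma p = 0.00584, adjusted p = 0.594). The other 5 members with p under 0.05 in conditioning were Rgs20 (-0.12 ± 0.05), Gng2 (-0.21 ± 0.09), Gngt2 (-0.20 ± 0.09), Gna15 (-0.16 ± 0.07) and Gnai2 (-0.14 ± 0.06), each with an adjusted p of at least 0.594 by limma. Rgs20, which acts on Gz, came to -0.08 when libraries were weighted by their quality, and Gna15 to -0.31 with a pseudocount of 0.1. Markers of other cells and regions had these levels in the same libraries: the oligodendrocyte markers averaged 8.51 ± 0.13 in cocaine and 8.40 ± 0.12 in saline libraries (mean log2 level, SD, n = 6 each), the astrocyte markers 5.72 ± 0.09 in cocaine and 5.89 ± 0.12 in saline libraries, and the hypothalamic and mammillary markers 1.68 ± 0.22 in cocaine and 1.99 ± 0.42 in saline libraries, and their part in these values was not tested. In bulk tissue fewer cells of a type and less RNA per cell cannot be told apart.

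After acute cocaine the smallest p was that of Gnaq, the alpha subunit of Gq. It had 48.7, 45.3, 41.5, 44.4 and 43.3 FPKM in acute cocaine libraries, against 47.8, 47.3, 49.4, 47.6, 54.8 and 51.1 FPKM in acute saline libraries, so that all but 1 cocaine library lay below every saline library. The difference was -0.15 ± 0.05, 0.901-fold (limma p = 0.0107, adjusted p = 0.985). Gng2, a widely used partner of beta subunits, had 66.4, 74.7, 68.2, 61.2 and 51.8 FPKM in acute cocaine and 67.5, 67.5, 73.4, 70.4, 85.3 and 78.7 FPKM in acute saline libraries, a difference of -0.20 ± 0.09 that became -0.09 with library weights. Gnai3 (0.07 ± 0.04), Rgs11 (-0.19 ± 0.10), Rgs17 (-0.13 ± 0.07) and Gng8 (0.17 ± 0.10) came next, with p of at least 0.0728 and an adjusted p of 0.985 each by limma. With library weights Rgs11 came to -0.10, and with GC and length levelled as described below Rgs17 came to -0.06. Without acute cocaine 4, Gng2 came to -0.12 and Gng8 to 0.11. The dopamine neuron markers averaged 5.65 ± 0.67 in acute cocaine (n = 5) and 6.01 ± 0.27 in acute saline libraries (n = 6, mean log2 level, SD). Their part in the values of the members was not tested.

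After chronic cocaine the member with the smallest p was Rgs5, the pericyte-enriched RGS gene. It had 29.4, 28.7, 22.1, 19.7, 19.4 and 21.6 FPKM in chronic cocaine libraries, against 26.9, 27.1, 26.3, 26.3, 29.7 and 32.1 FPKM in chronic saline libraries: 4 cocaine libraries lay below all saline libraries, and chronic cocaine 0 and 1 lay among them. The difference was -0.26 ± 0.10, 0.832-fold (limma p = 0.0206, adjusted p = 0.632). The pericyte markers averaged 2.22 ± 0.14 in chronic cocaine and 2.31 ± 0.05 in chronic saline libraries (mean log2 level, SD, n = 6 each), and their part in the Rgs5 value was not tested. In conditioning, Rgs5 had a median of 28.0 FPKM in cocaine and 26.3 FPKM in saline libraries, with overlapping ranges. Rgs12 (-0.13), Gna15 (-0.12), Rgs17 (-0.11), Gng3 (0.08) and Rgs8 (-0.07) followed, each with an adjusted p of at least 0.764 by limma. Several of these small differences moved by more than 1.5 times with a setting: Gng3 came to 0.02 after quantile normalization, Rgs17 to -0.05 with library weights, Rgs8 to -0.02 with GC and length levelled, and Gna15 to -0.24 with a pseudocount of 0.1. Single libraries moved them as well: Rgs12 came to -0.07 and Gng3 to 0.04 without chronic cocaine 3, Gna15 to -0.08 and Rgs8 to -0.04 without chronic cocaine 1, and Rgs8 to -0.04 without chronic saline 2.

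Between mice that self-administered cocaine and those that self-administered saline, the largest group of libraries in the study, the smallest p belonged to Rgs16. Its lowest, median and highest values were 2.33, 5.29 and 7.83 FPKM in the 15 cocaine libraries, against 4.58, 7.05 and 9.88 FPKM in the 9 saline libraries, and the ranges overlapped over most of their length. The difference was -0.30 ± 0.15, 0.813-fold (limma p = 0.0527, adjusted p = 1). The hypothalamic and mammillary markers averaged 1.91 ± 0.51 in self-administration cocaine (n = 15) and 2.62 ± 0.65 in self-administration saline libraries (n = 9; mean log2 level, SD), and their part in the Rgs16 value was not tested. Gng2 (-0.15 ± 0.08), Gna13 (-0.09 ± 0.05), Gng4 (-0.12 ± 0.08), Gng13 (-0.17 ± 0.11) and Rgs12 (-0.14 ± 0.10) came next, all with an adjusted p of 1 by limma. With library weights Gng13 came to -0.07. Without self-administration saline 0 it came to -0.10, and without self-administration saline 4 Rgs12 came to -0.07.

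**Figure D2:**
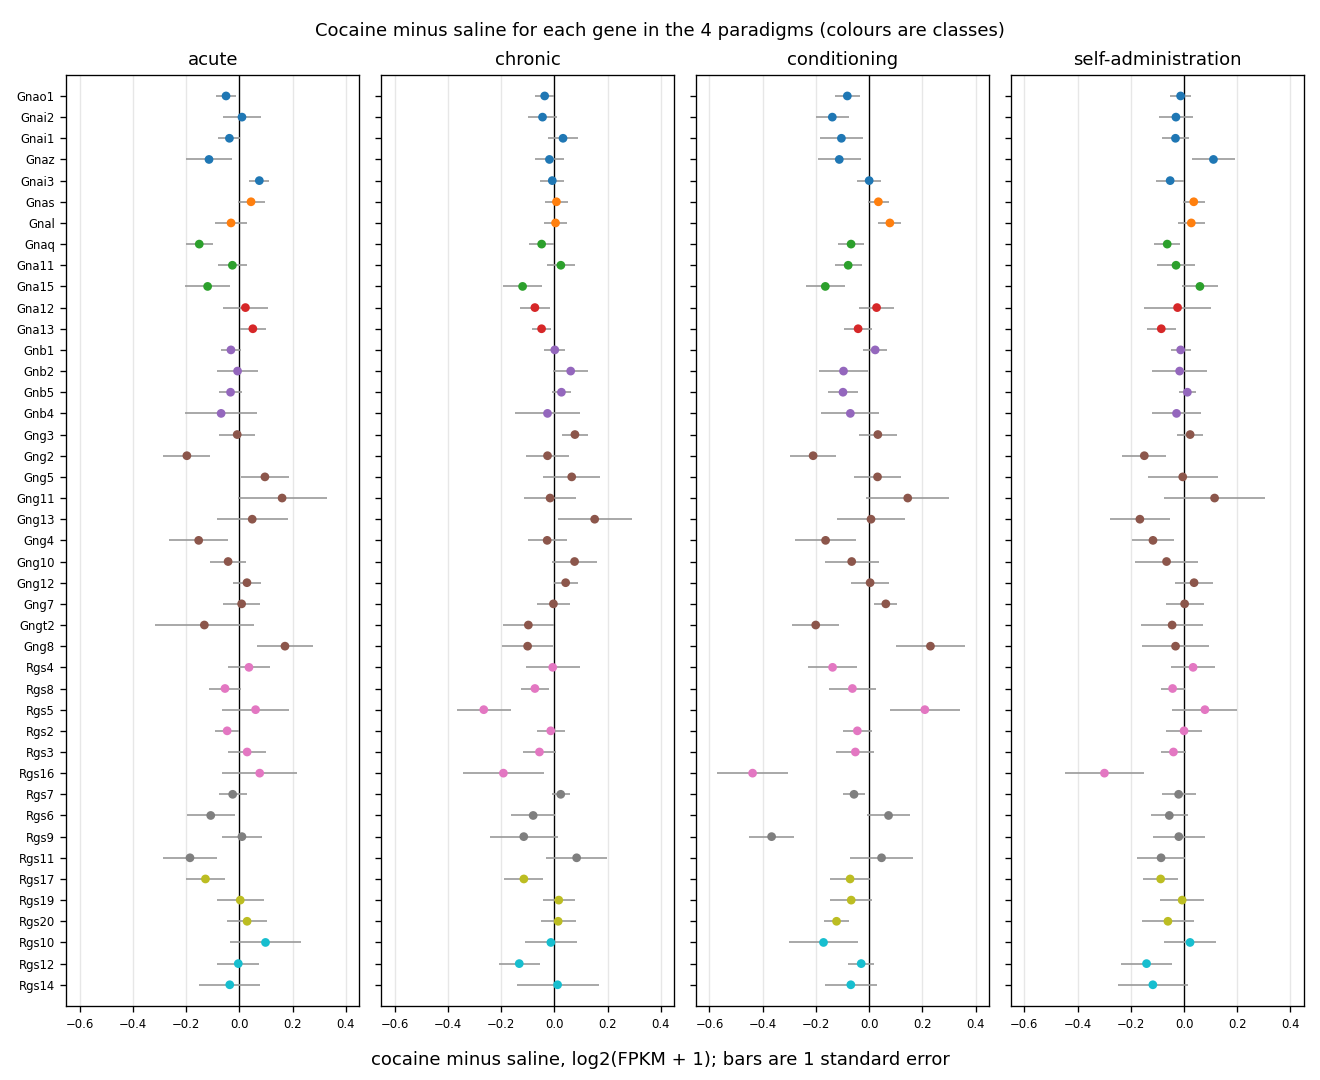
Difference between cocaine and saline libraries for each of the 43 genes, one panel per procedure, on the log2(FPKM + 1) scale with bars of 1 standard error; colours mark the classes. No gene passed the threshold in any panel, and the differences farthest below 0 are Rgs16 and Rgs9 in conditioning, at -0.44 and -0.37.

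One average difference between cocaine and saline was fitted over all 59 libraries, with the procedure as a term. It was below 0 for 34 of the 43 members and above 0 for 9, with a median of -0.03. Over all genes the median was -0.0015, and 6955 of 14263 were higher. Because members co-varied among libraries, their signs are not independent. By limma 0 of the 43 passed the adjusted threshold, which 0.00701% of all genes did. Unadjusted, p was under 0.05 for 5 of 43, against 12.6% of all genes. Over all genes, 904 of 1794 such differences were lower. The 5 members were all lower in cocaine libraries: Gng2 (-0.15 ± 0.05, adjusted p = 0.256), Gnaq (-0.08 ± 0.03, adjusted p = 0.256), Rgs16 (-0.23 ± 0.08, adjusted p = 0.258), Rgs17 (-0.10 ± 0.04, adjusted p = 0.283) and Gng4 (-0.11 ± 0.05, adjusted p = 0.316), all by limma. Gnao1 followed at -0.04 ± 0.02 (adjusted p = 0.398). With library weights the average came to -0.15 for Rgs16, -0.07 for Gng4 and -0.02 for Gnao1, and with GC and length levelled it came to -0.06 for Rgs17.

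Whether the effect of cocaine differed between procedures was tested as the difference itself, in one fit of all 8 groups. By limma's F test 0 of the 43 passed, as did 0% of all genes, and 0 of the 43 had an unadjusted p under 0.05 (1.53% of all genes). The smallest were Gna15 at p = 0.103, Rgs9 at p = 0.107, Gnb5 at p = 0.133 and Rgs5, all with an adjusted p of 1.00 by limma. Pairwise, the effect on Rgs9 was lower in conditioning than in acute injection by -0.38 ± 0.18 and higher in self-administration than in conditioning by 0.35 ± 0.15, and that on Rgs5 was higher in conditioning than in chronic injection by 0.47 ± 0.21, each with an adjusted p of 1 by limma. At an unadjusted p under 0.05 there were 0 of 43 for chronic minus acute (1.3% of all genes), 1 for conditioning minus acute (1.58%), 0 for self-administration minus acute (1.79%), 2 for conditioning minus chronic (2.28%), 0 for self-administration minus chronic (2.33%) and 3 for self-administration minus conditioning (3.05%).

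The receptors above these proteins and the effectors below them were read from lists of related genes. Of 27 receptors that couple to Gi or Go, 25 that couple to Gs or Gq, 18 effectors, 7 receptor kinases and arrestins and 15 partners and chaperones tested, 0 passed in any cocaine comparison by limma. In conditioning the smallest p in each list was that of Npy2r, a neuropeptide Y receptor (-0.30 ± 0.09), Adrb1, a beta adrenoceptor (-0.25 ± 0.07), Adcy1, an adenylyl cyclase (0.17 ± 0.07), Arrb2, a beta arrestin (-0.12 ± 0.06), and Gpsm3, which binds Gi alpha subunits (-0.45 ± 0.12), with adjusted p between 0.594 and 0.617.

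The largest differences among these genes lay between procedures. In the saline groups, 24 of 43 members passed the threshold between self-administration and the mean of the other 3 groups by limma, against 57.8% of all genes, so the share of members called (55.8%) was close to that of the whole table. Of the 24, 14 were higher in self-administration saline libraries (30.8% of all genes) and 10 lower (27% of all genes), and the median of the 43 was 0.00, against 0.02 for all genes. The F test over all 4 saline groups called 20 of 43, against 47% of all genes. By contrast, conditioning saline against home-cage saline and chronic saline against acute saline called 0 of 43 each, against 0.028% and 0% of all genes, and 2 and 1 of 43 had an unadjusted p under 0.05 (4.78% and 2.69% of all genes). Those with the smallest p were Rgs4 (0.22 ± 0.08), Rgs10 (0.24 ± 0.10) and Gng12 (0.11 ± 0.06) for conditioning saline minus home-cage saline, and Gng4 (-0.16 ± 0.06), Rgs4 (-0.18 ± 0.09) and Gng2 (-0.15 ± 0.08) for chronic saline minus acute saline, with adjusted p of at least 0.764 by limma.

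By class, the RGS genes called between the saline groups were higher in self-administration with 1 exception: 3 of the 6 R4 genes (Rgs16, Rgs4, Rgs8), 1 of 4 R7 genes (Rgs9), 1 of 3 RZ genes (Rgs17) and 2 of 3 R12 genes (Rgs12, Rgs14) were higher, and Rgs10 was lower. Rgs14 averaged 0.771 FPKM in all self-administration and 0.498 FPKM in all injected libraries, so it passed the limit of 0.5 FPKM only through the group in which it is higher, and its call, which the counts above include, carries no weight. Gamma subunits were split, with Gng2 and Gng4 higher and Gng11, Gng5, Gng8 and Gngt2 lower. Alpha subunits were split within their classes: Gna13 was higher and Gna12 lower, Gnaq higher and Gna15 lower, and Gnai3 and Gnao1 higher with Gnaz lower. Gnas was lower, and of the beta subunits Gnb1 was higher and Gnb2 lower. With GC and length levelled, as described below, Gnas, Gnaq, Gna15, Gngt2 and Rgs9 lost their calls and Gnb2 was called higher. The R7 genes Rgs6 (-0.21) and Rgs7 (-0.10) were then called lower. All class counts are to be read against the 30.8% of all genes called higher and the 27% called lower.

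Gng11, a gamma subunit found in many tissues (chromosome 6, 4003904 to 4008445, plus strand, GRCm38), stood farthest apart. Its lowest, median and highest values were 13.1, 17.2 and 32.5 FPKM in self-administration saline libraries, against 49.1, 51.7 and 59.8 FPKM in acute saline, 44.2, 56.0 and 63.5 FPKM in chronic saline and 43.2, 58.8 and 68.5 FPKM in conditioning saline libraries. All 9 self-administration saline libraries lay below all 18 other saline libraries. The difference was -1.48 ± 0.11, 0.360-fold (limma adjusted p = 3.46e-11). Among cocaine groups the same contrast gave -1.46 ± 0.15, with a median of 17.96 FPKM in self-administration cocaine libraries and 1 library, self-administration cocaine 0, at 53.9 FPKM within the range of the injected libraries.

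The G12 and G13 alpha subunits, which form a class of their own, differed in opposite directions. Gna12 (chromosome 5, 140758408 to 140830431, minus strand) had a lowest, median and highest value of 28.6, 43.4 and 52.6 FPKM in self-administration saline libraries, against 55.6, 69.5 and 72.6 FPKM in acute saline, 65.1, 66.2 and 72.3 FPKM in chronic saline and 65.2, 69.3 and 80.3 FPKM in conditioning saline libraries. Gna13 (chromosome 11, 109362831 to 109401369, plus strand) had 18.6, 21.3 and 23.8 FPKM in self-administration saline libraries, against 14.7, 15.9 and 16.6 FPKM in acute saline, 15.7, 16.4 and 16.8 FPKM in chronic saline and 14.6, 16.8 and 17.3 FPKM in conditioning saline libraries. Neither gene's self-administration saline range met that of the other saline libraries. The differences were -0.70 ± 0.07 for Gna12 (0.614-fold, limma adjusted p = 3.29e-09) and 0.36 ± 0.04 for Gna13 (1.29-fold, limma adjusted p = 1.83e-09). Such gaps, which 3 of 43 members showed with Gng11 included, were found for 8.05% of all genes between the saline groups. Between the cocaine groups 0 of 43 members and 3.72% of all genes showed one, and over all 24 self-administration and 35 injected libraries 0 of 43 members and 2.14% of all genes did.

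Of the members called on the higher side, Rgs16 had the largest difference. Its lowest, median and highest values were 4.58, 7.05 and 9.88 FPKM in self-administration saline libraries, against 2.55, 3.69 and 4.21 FPKM in acute saline, 1.97, 3.13 and 3.96 FPKM in chronic saline and 2.78, 3.50 and 4.88 FPKM in conditioning saline libraries, so that the ranges met only between the lowest self-administration and the highest conditioning libraries. The difference was 0.79 ± 0.11 (1.73-fold, limma adjusted p = 1.53e-06), and 0.67 ± 0.11 among cocaine groups. Rgs4, a neuronal RGS gene of the same class, had 44.7, 53.8 and 62.1 FPKM in self-administration saline libraries, against 36.1, 42.8 and 47.6 FPKM in acute saline, 31.0, 35.6 and 46.2 FPKM in chronic saline and 41.8, 44.8 and 56.7 FPKM in conditioning saline libraries, a difference of 0.35 ± 0.06 (limma adjusted p = 3.33e-05). Its neighbour Rgs5 had 12.7, 25.95 and 32.05 FPKM in self-administration saline libraries and medians of 24.1, 27.0 and 26.3 FPKM in the acute, chronic and conditioning saline libraries, and it was not called.

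The other members named for their size were Rgs17, an RZ gene (0.40 ± 0.06), Gng4 (0.31 ± 0.05), Rgs12 (0.29 ± 0.07), and Gng2 (0.28 ± 0.06) on the higher side. On the lower side were Gng8 (-0.65 ± 0.10), Gng5 (-0.54 ± 0.10), Gnaz (-0.44 ± 0.05), Gna15 (-0.36 ± 0.05), Gngt2 (-0.28 ± 0.10) and Rgs10 (-0.28 ± 0.08), all with an adjusted p of at most 0.0141 by limma. Gng5 had a lowest, median and highest value of 37.9, 40.9 and 78.5 FPKM in self-administration saline libraries, and 2 of the 9, self-administration saline 0 and 8, lay within the range of the injected saline libraries (57.3 to 96.3 FPKM). Fold changes on this scale understate those of the lowest genes: with a pseudocount of 0.1 Gna15 came to -0.79, and Rgs14, at 0.27 ± 0.09 and under the limit described above, to 0.62. Gnaz overlaps Rsph14, Gna12 overlaps Amz1 and Gngt2 overlaps Abi3 on the opposite strand, and the labels do not say whether counting used strand.

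**Figure D3:**
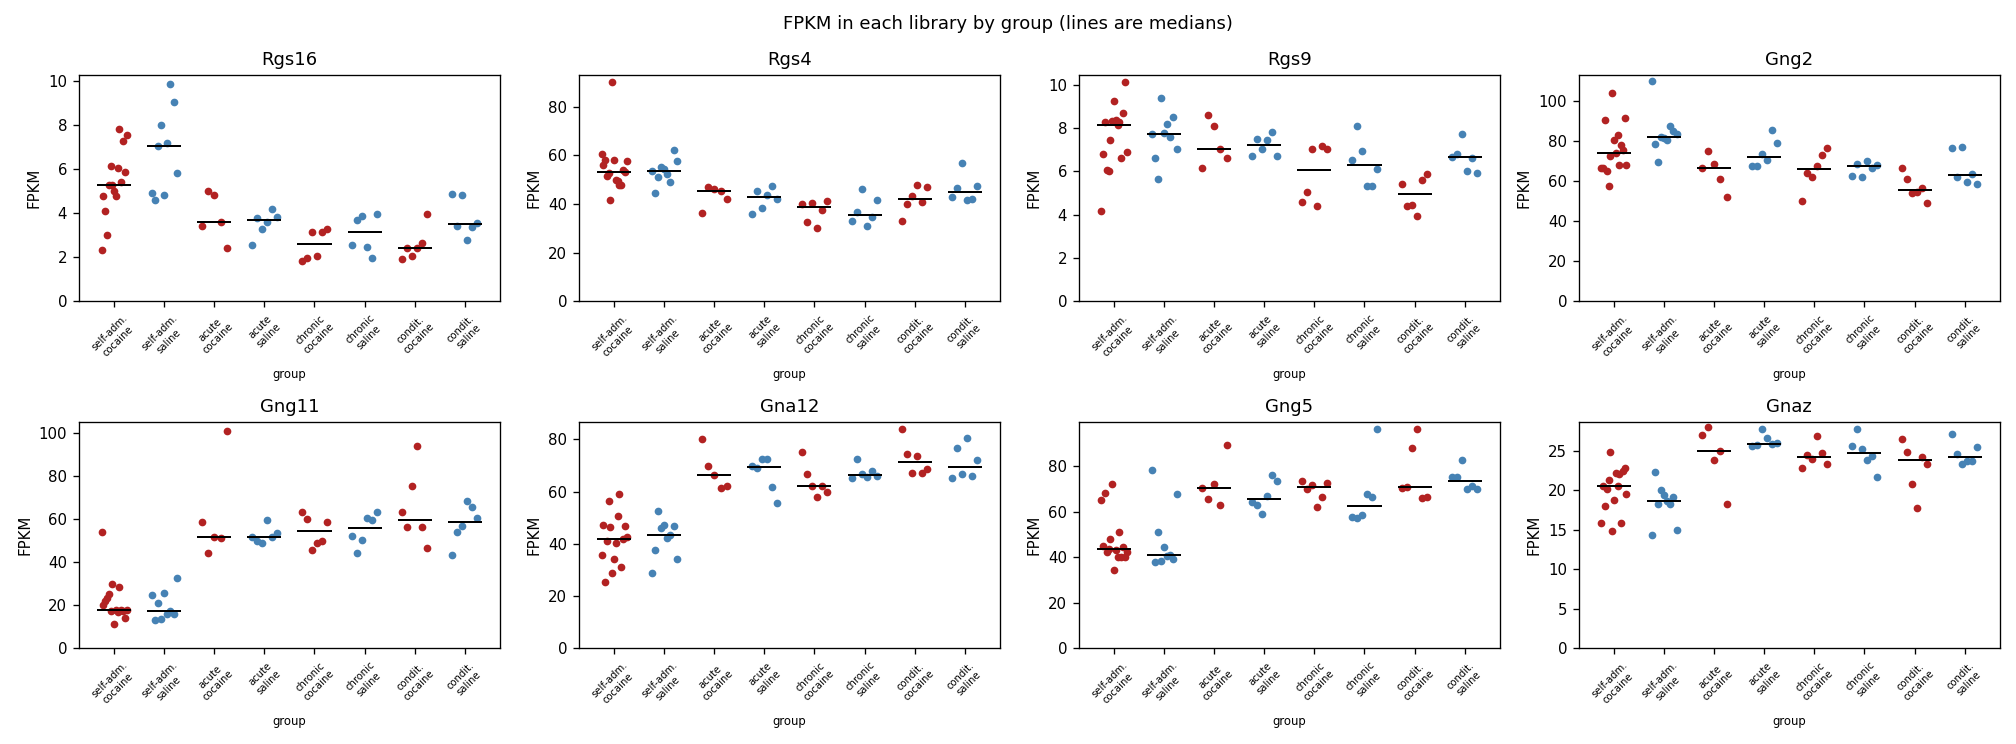
FPKM in each library for 8 genes, by group, with self-administration on the left of each panel and cocaine (red) left of saline (blue); each point is a library and each line a group median. Gng11, Gna12, Gng5 and Gnaz sit lower and Rgs16, Rgs4 and Gng2 higher in self-administration, and Rgs9 sits lower in conditioning cocaine libraries (3.96 to 5.88 FPKM) than in conditioning saline libraries (5.93 to 7.74 FPKM).

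The same contrast was drawn among the cocaine groups, which are other libraries of the same procedures. There 24 of 43 members were called, against 57.2% of all genes, 14 higher and 10 lower (31.1% and 26.1% of all genes), and 22 members were called in both. The share of all genes called in both was not counted, so the 22 cannot be set against the whole table. The F test over the 4 cocaine groups called 20 of 43, against 48.6% of all genes. Conditioning cocaine against home-cage cocaine and chronic cocaine against acute cocaine called 0 of 43 each (0.028% and 0% of all genes), with 3 and 2 of 43 at an unadjusted p under 0.05 (7.33% and 4.5%), led by Rgs9 (-0.34 ± 0.12) and by Rgs11 (0.28 ± 0.11), with adjusted p of 0.56 and 1 by limma. Gngt2 and Rgs14 were called between the saline groups only, and Gnb5 and Gng13 between the cocaine groups only. Gnaz differed by -0.25 ± 0.07 between the cocaine groups and Gng13 by -0.32 ± 0.09. Rgs10 (-0.23 ± 0.09) and Gnb2 (-0.18 ± 0.08) were near the threshold there: the call of Rgs10 was lost without any 1 of acute cocaine 4 (-0.19), self-administration cocaine 1 (-0.20) or self-administration cocaine 5 (-0.20), and that of Gnb2 without any 1 of 20 of the 32 libraries, at differences between -0.21 and -0.14 over all 32. Whether the contrast differed in size between saline and cocaine groups was not tested other than by the F test of the cocaine effect above.

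Over all genes this contrast moved with transcript GC content and length, so each member was read beside genes like it. The median saline difference was 0.10 in the decile of genes lowest in GC and -0.33 in the highest decile, and -0.12 in the shortest and 0.12 in the longest decile of transcripts. When the medians of 20 bins of GC and then of 20 bins of length were set equal in all libraries, an alternative added after seeing the data, 25 members were called between the saline groups, of which 18 had been called in the same direction before. Gng11 stayed at -1.37 and Rgs16 at 0.80, and Gng5 at -0.61, Gnaz at -0.40 and Rgs4 at 0.29 moved little. Gna12 came to -0.46, Gna13 to 0.24, Rgs17 to 0.24 and Gng8 to -0.39. Calls were lost for Gna15, Gnaq, Gnas, Gngt2 and Rgs9, with Gnas at 0.02, and Gnb2 turned to 0.13, against -0.18 before. Gna11 and Gng13 were called only then, as higher, and Gnai1, Gnal, Rgs6 and Rgs7 only then, as lower. Between the cocaine groups 23 members were then called, 17 of them among the 24 called before, and calls were lost for Gna15, Gnai3, Gnaq, Gnas, Gnb2, Gng13 and Rgs10. For neither contrast was the share of all genes called, or still called, at this setting counted. These counts of members therefore cannot be set against the whole table. Rgs10 came to -0.14, against -0.23 before, Gna13 came to 0.17, Rgs17 to 0.24 and Rgs8, at 0.29 before, to 0.14, and Gng13 turned to 0.01 and Gnb2 to 0.10.

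**Figure D4:**
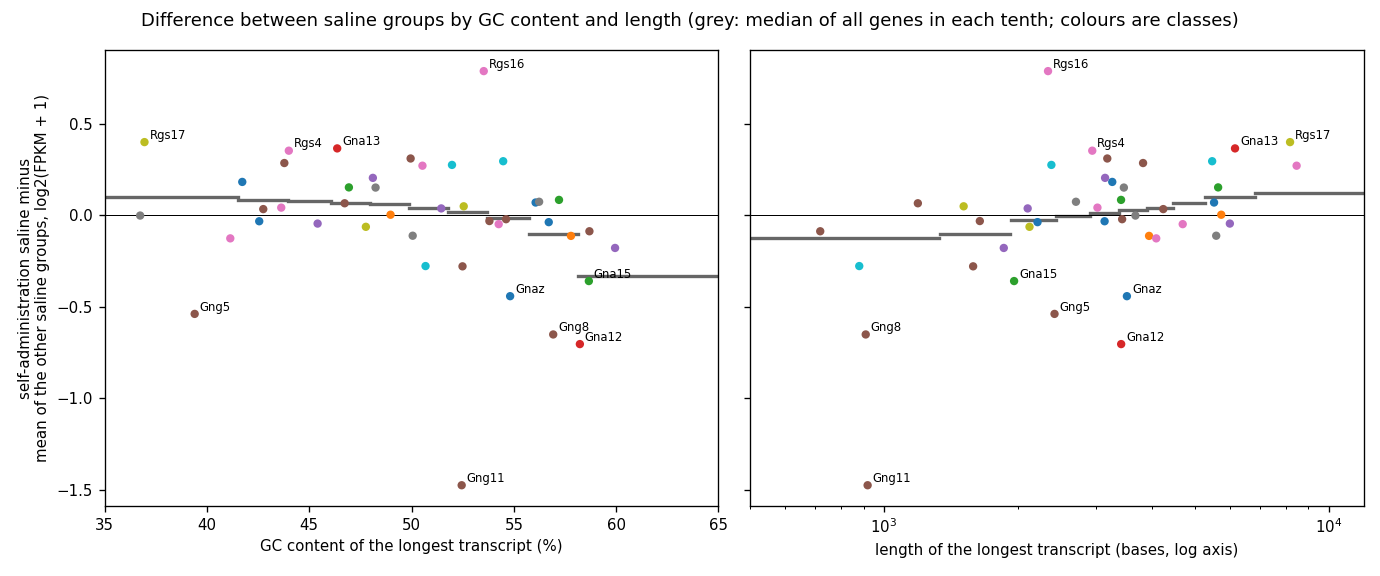
Difference between self-administration saline libraries and the mean of the other saline groups on the log2(FPKM + 1) scale for each of the 43 genes (points, coloured by class), against the GC content in percent (left) and the length in bases on a log axis (right) of the longest transcript. Grey lines are the median difference of all genes in each decile, which reaches -0.33 at the highest GC; Gng11, at -1.48, lies far below its decile in both panels.

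Some cell type markers were also called between the same libraries, and their part in the members' differences was not tested. The counts of markers are to be read against the 30.8% of all genes called higher and the 27% called lower. Oligodendrocyte markers were lower in self-administration saline libraries for 8 of 10 genes and higher for 0, with a mean log2 level of 7.79 ± 0.25 (n = 9), against 8.22 ± 0.13, 8.22 ± 0.05 and 8.40 ± 0.12 in acute, chronic and conditioning saline libraries (SD, n = 6 each), and summed levels of 4204 to 8832 FPKM against 6089 to 9721 FPKM. Microglia markers were lower for 8 of 10 and dopamine neuron markers for 3 of 13, and astrocyte markers were higher for 6 and lower for 1 of 9. The dopamine neuron markers had a mean log2 level of 5.41 ± 0.48 in self-administration saline libraries (n = 9). In acute, chronic and conditioning saline libraries it was 6.01 ± 0.27, 5.86 ± 0.64 and 5.78 ± 0.47 (SD, n = 6 each). Pericyte markers were higher for 1 and lower for 2 of 8, and endothelial markers higher for 2 and lower for 2 of 8. No marker of these lists was at 0 in any library. Hypothalamic and mammillary markers were higher for 2 and lower for 1 of 6 tested, with a mean log2 level of 2.62 ± 0.65 in self-administration saline libraries (n = 9), against 2.05 ± 0.51, 1.88 ± 0.50 and 1.99 ± 0.42 in acute, chronic and conditioning saline libraries (SD, n = 6 each), and summed levels of 27.5 to 226 FPKM against 15.98 to 83.1 FPKM. Of that list Hcrt, Avp and Oxt were at 0 in 7, 42 and 41 of the 59 libraries. Glutamate neuron markers were higher for 2 of 2, at 4.11 ± 0.43, against 3.79 ± 0.28, 3.49 ± 0.17 and 3.74 ± 0.29. GABA neuron markers were higher for 2 and lower for 1 of 3, and forebrain markers higher for 1 and lower for 1 of 5 tested.

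The pathway lists moved with the same contrast. Of receptors that couple to Gi or Go 8 were higher and 6 lower of 27, of those that couple to Gs or Gq 12 higher and 7 lower of 25, of effectors 8 higher and 1 lower of 18, of receptor kinases and arrestins 3 higher and 1 lower of 7, and of partners and chaperones 5 higher and 1 lower of 15. Those with the smallest p were Oprl1, the nociceptin receptor (0.55 ± 0.05), and Npy1r (0.51 ± 0.07), Adrb1 (-0.69 ± 0.07) and the serotonin receptor gene Htr6 (-0.51 ± 0.07), Arhgef1, an effector of G12 and G13 (-0.59 ± 0.08), and Kcnj5, a potassium channel subunit opened by beta-gamma (0.37 ± 0.05), Arrb1 (0.34 ± 0.03) and the receptor kinase gene Adrbk2 (0.35 ± 0.06), and Gprin2 (-0.46 ± 0.08) and the small G protein gene Rasd2 (0.36 ± 0.07), all called by limma. These shares are to be read against the 30.8% of all genes that were higher and the 27% that were lower.

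Members were next set against the cell type markers from library to library within groups, as deviations from the group mean, in the 35 injected and the 24 self-administration libraries apart. Of 430 relations in each, 96 passed an adjusted p of 0.05 by permutation in the injected and 36 in the self-administration libraries, adjusted over all 860. Only the members were set against the markers, so no share over all genes can stand beside these relations. Libraries share their scaling and dissection, so these are co-variations of level in tissue pieces. Gnb4, a beta subunit of low level, followed the dopamine neuron markers most closely, with Pearson's r = 0.892 and Spearman's ρ = 0.861 over the injected libraries (permutation p = 1e-05 for both, the smallest that 100000 permutations can give; adjusted p = 0.000662 and 0.000614). Without the 2 libraries farthest from the median r was 0.877. Over the self-administration libraries r was 0.603 and ρ 0.587 (permutation adjusted p = 0.0185 and 0.0257), and r was 0.551 without 2 libraries. Rgs3, an R4 gene, gave r = 0.783 and 0.532 with the same markers in the injected and self-administration libraries (permutation adjusted p = 0.000662 and 0.048), and Gng3 gave 0.741 and 0.563 (permutation adjusted p = 0.000662 and 0.0321), though Gng3 came to 0.350 without 2 self-administration libraries. Rgs4, chosen after its value was seen, ran against these markers in the injected libraries (r = -0.727, ρ = -0.715, permutation adjusted p = 0.000662 and 0.000614) but not past the threshold in the self-administration libraries (r = -0.148, permutation adjusted p = 0.678). That difference between r values was not tested.

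**Figure D5:**
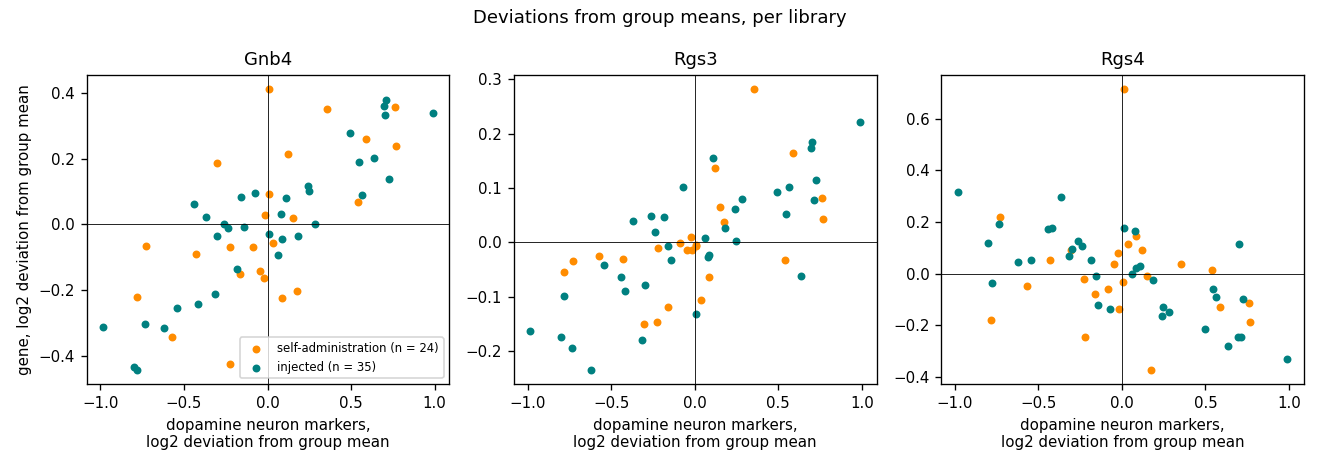
Deviation of Gnb4, Rgs3 and Rgs4 from their group means against that of the dopamine neuron markers, both in log2 units; each point is a library of self-administration (orange, n = 24) or injection (teal, n = 35). Gnb4 and Rgs3 climb with the markers in both sets, at r = 0.892 and 0.783 over the injected libraries, and Rgs4 falls with them at r = -0.727 there.

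Relations to the other cell types named the 3 members with the largest r in the injected libraries for each list. Against oligodendrocyte markers these were Gng2 (r = -0.641 in injected and -0.621 in self-administration libraries), Gng4 (-0.625 and -0.568) and Rgs9 (-0.604 and -0.574), past the adjusted threshold by permutation in both sets. Without the 2 libraries farthest from the median of the markers r for Rgs9 was -0.539 and -0.449. Against pericyte markers Rgs2 was lower where the markers were higher (r = -0.646 and -0.812, ρ = -0.586 and -0.725, permutation adjusted p of r = 0.00132 and 0.000956), and Gng2 and Gnaq did so in the injected libraries (-0.584 and -0.562). Rgs5, named above as a pericyte marker from background knowledge, was not among these 3 members. Against microglia markers Gng10 gave r = 0.748 in the injected and 0.335 in the self-administration libraries, Rgs6 gave 0.647 and 0.0819, and Gnb5 gave 0.531 and 0.320, with the injected value at 0.338 without 2 libraries. Against endothelial markers Gng2 (-0.719 and -0.277), Gnaq (-0.643 and -0.220) and Gnb4 (-0.625 and -0.0479) led, and against astrocyte markers Rgs3 (0.699 and 0.246), Gna15 (0.646 and 0.211) and Gnb4 (0.593 and 0.616). In the self-administration libraries none of these microglia, endothelial and astrocyte relations passed the adjusted threshold by permutation, apart from Gnb4 with astrocyte markers (adjusted p = 0.013), which came to r = 0.415 without 2 libraries.

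Markers of other regions and transmitters gave further relations. Rgs14 followed the glutamate neuron markers (r = 0.696 in injected and 0.826 in self-administration libraries) and those of the hypothalamus and mammillary body (0.632 and 0.527), all past the adjusted threshold by permutation. The glutamate list held 2 genes, of which Slc17a7 averaged 1.25 FPKM and ranged from 0.0836 to 27.9 FPKM, so few libraries can set its level. Rgs14 itself was the lowest member, at a mean of 0.609 FPKM. Rgs17 (0.684 and 0.129) and Rgs16 (0.678 and -0.0261) followed the hypothalamic and mammillary markers in the injected libraries. Gnb1 (0.734 and -0.0567), Rgs6 (0.624 and -0.002) and Rgs9 (-0.506 and -0.294) led against GABA neuron markers, and Rgs3 (0.702 and 0.523), Rgs10 (-0.683 and 0.0471) and Gnb4 (0.676 and 0.690) against forebrain markers. Rgs9 and Gng7, the next members by r for glutamate neurons, missed the adjusted threshold in the injected libraries (0.408 and 0.401). Gng7 passed it in the self-administration libraries (r = 0.668, permutation adjusted p = 0.0372), where r was -0.0447 without 2 libraries. The hypothalamic list held Pmch, which reached 197 FPKM in 1 library.

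Some members also co-varied with each other, in either direction. Of 903 pairs, 229 passed an adjusted permutation p of 0.05 in the injected libraries, 134 of them with r above 0, and 161 passed in the self-administration libraries, 93 with r above 0. Pairs of other genes were not tested, so no share over all genes stands beside these counts. The pairs named here were chosen after their values were seen. Gnaz and Gnb2 gave r = 0.866 and 0.882 and ρ = 0.764 and 0.857 in the injected and self-administration libraries, and 0.759 and 0.812 once GC and length were levelled. Gng2 and Gng4 gave r = 0.747 and 0.840 and ρ = 0.729 and 0.874, and r of 0.832 and 0.904 with GC and length levelled (permutation p = 1e-05 for each r and ρ of both pairs, the smallest possible; adjusted over 1806 relations, 0.000384 for each r). Gna11 and Gng11 ran against each other, with r = -0.744 and -0.678, the self-administration value at -0.420 without 2 libraries, and with r of -0.486 and -0.675 once GC and length were levelled.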

How the data were processed

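All values came from one table of FPKM that the authors deposited, made from total RNA. An RNeasy kit and a TruSeq kit were used, per the labels' protocols. Per the submitters' processing notes, Bowtie and Cuffnorm and the build mm10 were used. Their versions are not given in the sources, and nor are annotation, strand setting and scaling. Column numbers match no replicate number of the labels, so columns are unpaired replicates of a group. Reads were not recoverable, so depth is unknown and no count test was run.

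All genes that averaged 0.5 FPKM or more across the 59 libraries were tested on log2(FPKM + 1) with limma 3.58.1 in R 4.3.3 (empirical Bayes, trend and robust, two-sided) and adjusted by Benjamini and Hochberg over 14263 genes. Fold changes on this scale understate those of low genes. Each procedure had its own fit of cocaine against saline. The average effect, the 3 interaction terms and the saline groups had their own fits, and the contrast among cocaine groups was added after seeing the data. Scripts were tested on simulated data.

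Correlations used deviations from group means, 100000 permutations with seed 1, and adjustment over all relations. GC content and length came from the longest GENCODE M21 transcript (GRCm38), found for 96.3% of tested genes and all 43 members. Overlapping genes and near-identical copies may share reads.

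The members and lists were chosen with earlier results of these data known. Named were the members past the threshold, filled to 6 by smallest p for each cocaine comparison and to 4 for the interaction, up to 8 per direction between saline groups, filled to 3, the 3 largest r for each marker list, the highest 2 and the lowest of each class, and the genes with the smallest p of each pathway list. The 11 genes Gnao1, Gnai2, Gnas, Gnal, Gnaq, Gnb1, Gng7, Rgs2, Rgs4, Rgs5 and Rgs9 are given by level in addition. Alternatives were the pseudocount, the filter, quantile and median scaling, library weights, plain empirical Bayes, and leaving out each library.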

Additional observations from a re-analysis of the deposited data

Results flagged for a closer look

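Within each group of 5 to 9 libraries, a highest or lowest value was singled out where its gap to the nearest other library, over the range of the group, passed Dixon's critical value at 95%. The 15 self-administration cocaine libraries were not screened in this way, and nor were genes other than the members. Of 301 such sets of values 21 were singled out, in 18 members, and chance alone singles out about 1 set in 20. Acute cocaine 4 held 3 of them: Gng11 at 101 FPKM (100.96, next library 58.8 FPKM), Rgs12 at 3.67 FPKM (next 4.87 FPKM) and Rgs20 at 12.6 FPKM (next 10.1 FPKM).

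The injected cocaine libraries held 5 more. Chronic cocaine 0 was lowest for Gnb4 at 5.83 FPKM (next 8.23 FPKM), chronic cocaine 3 highest for Gng3 at 170 FPKM (169.74, next 151 FPKM) and chronic cocaine 2 highest for Rgs14 at 1.28 FPKM (next 0.552 FPKM). Conditioning cocaine 5 was highest for Rgs16 at 3.96 FPKM (next 2.66 FPKM), and conditioning cocaine 0 highest for Rgs7 at 25.5 FPKM (next 23.8 FPKM).

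The injected saline libraries held 8. Acute saline 0 was highest for Gnb4 at 11.3 FPKM (next 9.09 FPKM), and acute saline 4 was highest for Gnb5 at 58.1 FPKM (next 54.7 FPKM) and for Gng10 at 24.3 FPKM (next 20.996 FPKM). Chronic saline 5 was lowest for Gnb2 at 104 FPKM (104.45, next 126 FPKM) and highest for Gng5 at 96.3 FPKM (next 67.7 FPKM), and chronic saline 2 was lowest for Gng12 at 15.7 FPKM (next 17.9 FPKM). Conditioning saline 4 was lowest for Gna13 at 14.6 FPKM (next 16.5 FPKM), and conditioning saline 0 highest for Gnaq at 49.3 FPKM (next 46.6 FPKM).

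The self-administration saline libraries held 5. Self-administration saline 0 was highest for Gnai3 at 18.1 FPKM (next 15.982 FPKM) and for Gng2 at 110 FPKM (109.83, next 87.5 FPKM). Self-administration saline 4 was highest for Rgs12 at 10.1 FPKM (next 7.19 FPKM) and for Rgs3 at 17.0 FPKM (16.952, next 14.6 FPKM), and self-administration saline 2 was highest for Gng12 at 24.4 FPKM (next 20.2 FPKM).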

How the results depend on the processing

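No paired analysis was possible because the columns carry no replicate number of the labels. The count of members called stayed at 0 in each cocaine comparison under each alternative run. Over all genes, library weights gave 2 calls in conditioning and 1 in self-administration, levelling GC, or GC and length, gave 1 in chronic injection, and leaving out single libraries gave 0 to 1 there (1 without chronic cocaine 0, chronic saline 0 or chronic saline 2). Leaving out single libraries gave 22 to 24 members between self-administration and other saline groups and 22 to 25 between the cocaine groups. The share of all genes was not counted in these runs. Among the cocaine groups Gnb2 turned to 0.0207 with GC levelled and to 0.0979 with GC and length levelled, and Gng13 to 0.0074 with both. Some correlations in the self-administration libraries, none past the threshold apart from Gng7, turned: without 2 libraries Rgs3 with astrocyte markers came to -0.0501 and Gng7 with glutamate neuron markers to -0.0447, and with GC and length levelled Gnb4 with endothelial markers came to 0.0021, Gng2 with pericyte markers to 0.0753, Gnb1 and Rgs6 with GABA neuron markers to 0.0805 and 0.0948, and Rgs10 with forebrain markers to -0.122. With a pseudocount of 0.1 Rgs16 with hypothalamic markers came to 0.0571 and Rgs10 with forebrain markers to -0.0101. The causes were not tested. Without read counts, the depth that limits low genes such as Rgs14 and Gna15 is unknown.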
